A study of Mus musculus with 4 samples.

Results

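Neutrophils were selected among the CD45+ (immune) cells of 2 brain regions, thalamus and hippocampus (HPC), in mice whose cortex had been injured. The cells were measured by droplet-based scRNA-seq, which counts the RNA of single cells. A cell was taken as a neutrophil when S100a8 and S100a9 together made up at least 50 of every 10000 UMIs (unique molecular identifiers, 1 for each RNA molecule counted) and at least 10 raw UMIs. It also needed at least 1 UMI of Retnlg, Cxcr2, Csf3r or Mmp9, and 0 UMIs of the CD3 genes Cd3d, Cd3e and Cd3g. The rule selected 713 of 24939 kept cells (2.86%), 257 in the thalamus and 456 in the HPC. The mice were C57B6/J, all were injured, and no uninjured tissue was measured. Per the methods of the study, the injured hemisphere was micro-dissected and live CD45+ cells were sorted, with equal numbers of cells from 4 mice pooled for each region. Each of the 8 tagged sets (4 thalamus, 4 HPC) was taken as 1 mouse, which the labels do not state. The labels give neither the age and sex of these mice nor the time after injury. As each region was its own library, a difference between regions cannot be told apart from one between libraries.

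Neutrophils are short-lived granulocytes that are made in the bone marrow, circulate in blood and enter tissue after injury. They fill their granules in a fixed order while they mature, first with proteases such as elastase, then with lactoferrin (Ltf), cathelicidin (Camp) and neutrophilic granule protein (Ngp), and last with gelatinase (Mmp9). Mature cells leave the marrow through CXCR2, and are held there or called back by CXCR4. In inflamed tissue they can make interleukin-1 beta (Il1b) and chemokines and respond to interferons.

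Neutrophils held less RNA than the other immune cells. Their median was 1949 UMIs and 1075 genes per cell, against 4700 UMIs in cells passing a simple microglia gate (at least 5 UMIs of a few microglial genes, P2ry12, Tmem119 and Cx3cr1 among them) and 3843 UMIs in cells passing a T cell gate (at least 2 CD3 UMIs). The sets kept 2072 to 5389 cells each after filtering. HPC set 1 kept 80.5% of its cells and the other HPC sets 92.9% to 95.6%, while the thalamus sets kept 80.4% to 87.9%. Within a region 0 cell barcodes were shared between sets. Between the regions 49 were shared, 3 of them carried by neutrophils.

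The number of neutrophils differed far more between sets of a region than between the regions. In the thalamus they made up 3.80%, 3.51%, 0.416% and 0.917% of the kept cells of sets 1 to 4, which were 125, 91, 9 and 32 cells. In the HPC they made up 7.55%, 0.581%, 0.338% and 0.902%, which were 407, 21, 7 and 21 cells. HPC set 1 stood above all other sets, and its exact 95% binomial interval of 6.86% to 8.29% did not reach that of any other set. Thalamus sets 1 and 2 came next, with intervals of 3.17% to 4.51% and 2.83% to 4.29%. The remaining 5 sets lay under 1%. These intervals cover counting error only.

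The mean share was 2.16% ± 1.74 in the thalamus and 2.34% ± 3.48 in the HPC (SD, n = 4 sets each), a difference of -0.18 percentage points. A two-sided exact permutation test gave p = 0.914 (0.914 after Benjamini-Hochberg adjustment over 5 cell classes), where the smallest p that 4 against 4 sets allow is 0.0286. HPC set 1 alone held 57.1% of all neutrophils, and without it the sign of the difference turned to 1.55 percentage points higher in the thalamus (exact permutation p = 0.229). Leaving out thalamus set 3 or 4 also turned the sign, to 0.40 and 0.23. Among cells outside the microglia gate, neutrophils made up 13.8%, 11.7%, 3.36% and 3.12% in thalamus sets 1 to 4. The same shares were 22.9%, 5.12%, 5.79% and 8.40% in HPC sets 1 to 4, and HPC set 1 was again the highest. Per 100 T cells of the same set there were 24.6, 18.1, 5.52 and 3.73 neutrophils in thalamus sets 1 to 4, and 44.9, 7.84, 12.3 and 12.7 in HPC sets 1 to 4.

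**Figure D1:**
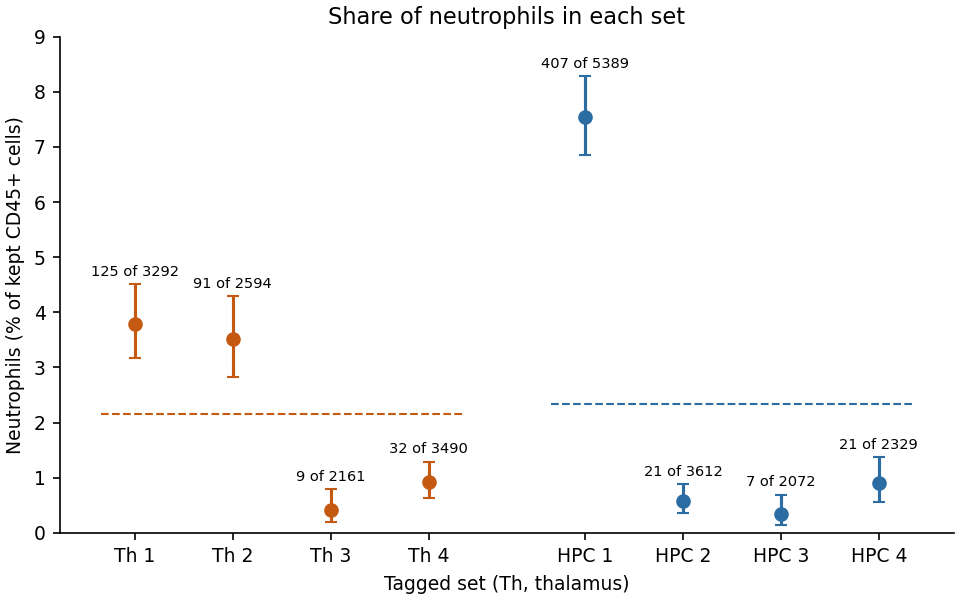
Neutrophils as a percent of kept CD45+ cells in each tagged set, with exact 95% binomial intervals (bars), counts above the points and the mean of each region (dashed line). HPC set 1 sits at 7.55% and thalamus sets 1 and 2 at 3.80% and 3.51%, while the other 5 sets lie under 1%.

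The selected cells carried markers of neutrophils beyond those of the rule. S100a8 and S100a9 encode the calprotectin subunits. The rule used both, as well as Retnlg, Cxcr2, Csf3r and Mmp9, so the levels of these genes are a description. S100a9 stood at 197, 271, 218 and 555 UMIs per 10000 in thalamus sets 1 to 4 and at 215, 560, 227 and 346 in the HPC sets. In all other kept cells it stood at 0.876. Cxcr2, the receptor through which neutrophils follow chemokines, ranged from 8.06 to 16.9 UMIs per 10000 over the sets, against 0.0610 in the other cells. Csf3r, which also meets the rule, ranged from 21.3 to 37.0, against 3.92 in the other cells. It was found in 79.7% of cells passing the microglia gate, so it sets neutrophils less apart. Slpi, a protease inhibitor that the rule did not use, ranged from 8.44 to 18.1, against 0.102. Hdc, which makes histamine, was present in 62.4% of the neutrophils at 5.84 to 12.2 UMIs per 10000. All 20 genes of a list of neutrophil identity, those of the rule among them, had at least 1 UMI, some of them in few cells. Ly6g was found in 3.51% of the neutrophils. Cd177 was found in 1.57% of those outside the maturing cells described below. Of the 49 cells just inside the S100 limit (50 to 75 per 10000), the median held 12 UMIs of the 4 receptor and protease genes, and the 32 cells just outside it held 11.

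RNA of other cells was present, and that of microglia was uneven between the sets. Microglial markers (15 genes, all detected) summed to 18.9 to 68.5 UMIs per 10000 over the sets, highest in thalamus set 1, against 402 in the microglia gate and 78.7 in T cells. Thalamus sets 1, 2 and 4 stood at 68.5, 46.2 and 22.8, and HPC sets 1, 2 and 4 at 52.9, 23.4 and 29.3. Cells with at least 20 UMIs per 10000 of 7 of these genes, P2ry12 and C1qa among them, numbered 351 of 713. They were 63.2%, 60.4%, 33.3% and 21.9% of the neutrophils of thalamus sets 1 to 4. In HPC set 1 they were 47.4%, and in each of the other HPC sets 28.6%. Markers of T and NK cells (0 to 2.44), B cells (0 to 2.85) and monocytes and macrophages (0.726 to 7.09, with F13a1, Vcan, Cd163 and Lyve1 at 0) lay far below their own gates. Of 14 genes of basophils, eosinophils and mast cells 10 were at 0, among them Mcpt8, Epx and Prg2. Siglecf, best known from eosinophils, was found in 15.4% of the neutrophils at 0.575 to 2.60 UMIs per 10000, against 0.187 in the microglia gate.

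**Figure D2:**
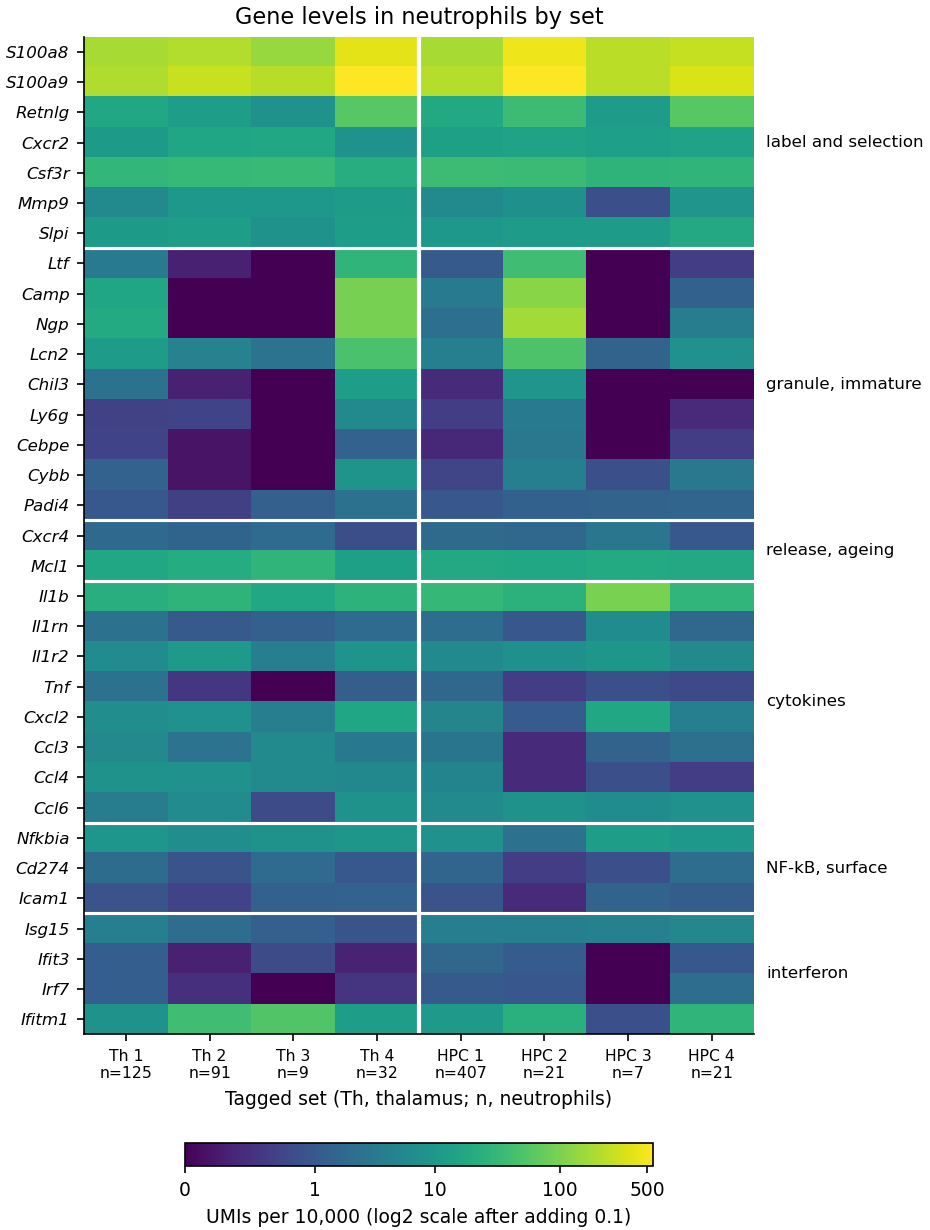
Levels of named genes (rows, grouped by role) in the neutrophils of each set (columns), in UMIs per 10000 on a log2 scale after 0.1 was added. Il1b and Csf3r are high in all 8 sets. Camp and Ngp are bright in thalamus sets 1 and 4 and HPC set 2, and at 0 in thalamus sets 2 and 3 and HPC set 3.

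RNA of Ltf, Camp and Ngp, made between the first and the last granule proteins, was confined to a few of the 713 neutrophils. Of these, 674 had 0 UMIs of Ltf, Camp and Ngp together. A further 28 had 1 to 5 UMIs, under 20 per 10000. The remaining 11 cells had 26 to 1723 UMIs, which was 97.8 to 1596 per 10000, with none in between. These 11 cells, called maturing here after their values were seen, held 99.2% of all UMIs of the 3 genes. Thalamus set 4 held 4 of them, HPC set 1 held 3, thalamus set 1 held 2, and HPC sets 2 and 4 held 1 each. They were 12.5% of the 32 neutrophils of thalamus set 4 but 0.737% of the 407 of HPC set 1. The level of the granule genes of a set was therefore that of a few cells, as for Ngp with 19.4, 0, 0 and 95.9 UMIs per 10000 in thalamus sets 1 to 4 and 2.26, 169, 0 and 3.66 in HPC sets 1 to 4.

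The maturing cells differed from the other neutrophils in many genes. They were larger by RNA, with a median of 4244 against 1943 UMIs. Beyond the 3 genes that set the limit, they held Chil3 (a chitinase-like granule protein) at 37.9 against 0.0275 UMIs per 10000, the surface markers Ly6g at 14.4 against 0.234 and Cd177 at 8.33 against 0.0895. Lcn2, which binds bacterial iron carriers, stood at 158 against 3.30, Cybb of the oxidase at 21.1 against 0.434, and the collagenase Mmp8 at 13.8 against 0.695. Cebpe, a transcription factor of granule genes, stood at 5.67 against 0.158. S100a8 was 5.44 times and S100a9 6.49 times as high as in the others. In reverse, Il1b stood at 0.709 against 30.9, the serglycin gene Srgn at 4.08 against 59.4, Csf3r at 3.19 against 35.3 and the interleukin-1 decoy receptor Il1r2 at 0.709 against 7.09. The genes Acod1 and Ccrl2 had 0 UMIs in these cells. Of their T and NK marker UMIs, 46 of 47 lay in 1 cell.

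No earlier stage was seen among the selected cells at this depth. The rule asks for high S100a8 and S100a9, so cells of an earlier stage low in these genes would have been left out. Elane, Mpo and Prtn3, proteins of the first granules, had 13 UMIs in all neutrophils together, and Mpo and Ctsg had 0. UMIs of 5 proliferation genes (Mki67, Top2a, Birc5, Ube2c and Pclaf) were found in 15 cells, of which 1 was a maturing cell. After each cell was thinned to 1337 UMIs, 1.40% of the neutrophils had such a UMI, against 7.48% of T cells and 1.26% of microglia, so the share lay near that of microglia. Cxcr4 was found in 21.5% of the thinned neutrophils (27.9% before thinning), against 0.616% of T cells. Retnlg, a gene of marrow and blood neutrophils that the rule used, was present in 49.6% of the cells, at 16.8, 12.2, 8.44 and 59.4 UMIs per 10000 in thalamus sets 1 to 4. In the HPC sets it stood at 18.8, 37.0, 11.6 and 58.6, and set 4 was high in both regions.

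Il1b, which encodes interleukin-1 beta, was found in most neutrophils of every set, 55.6% to 92.3% before thinning. Over all sets it was found in 81.9% of the thinned neutrophils (85.6% before thinning), against 0.938% of T cells and 2.26% of microglia. Before thinning it was also found in 34.3% of cells passing a monocyte gate. Its level in the neutrophils was 23.3, 27.6, 16.9 and 26.5 UMIs per 10000 in thalamus sets 1 to 4 and 31.8, 25.3, 97.3 and 29.7 in the HPC sets. Apart from HPC set 3, which has 7 neutrophils, the sets differed by less than 2-fold. Genes that hold interleukin-1 signals in check were present too, Il1r2 at 3.90 to 10.7 UMIs per 10000 and the receptor antagonist gene Il1rn at 0.958 to 6.53. Mcl1, which keeps neutrophils alive, stood at 13.3 to 27.9. Acod1, which makes itaconate, was found in 39.7% of cells at 1.30 to 10.5 UMIs per 10000, against 0.0686 in T cells. The NF-kB inhibitor gene Nfkbia ranged from 2.49 to 12.3 and was lowest in HPC set 2. Fcgr4, an Fc receptor, was at 0.795 UMIs per 10000 over all neutrophils, Icam1 at 0.828 and Tnf at 1.54.

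**Figure D3:**
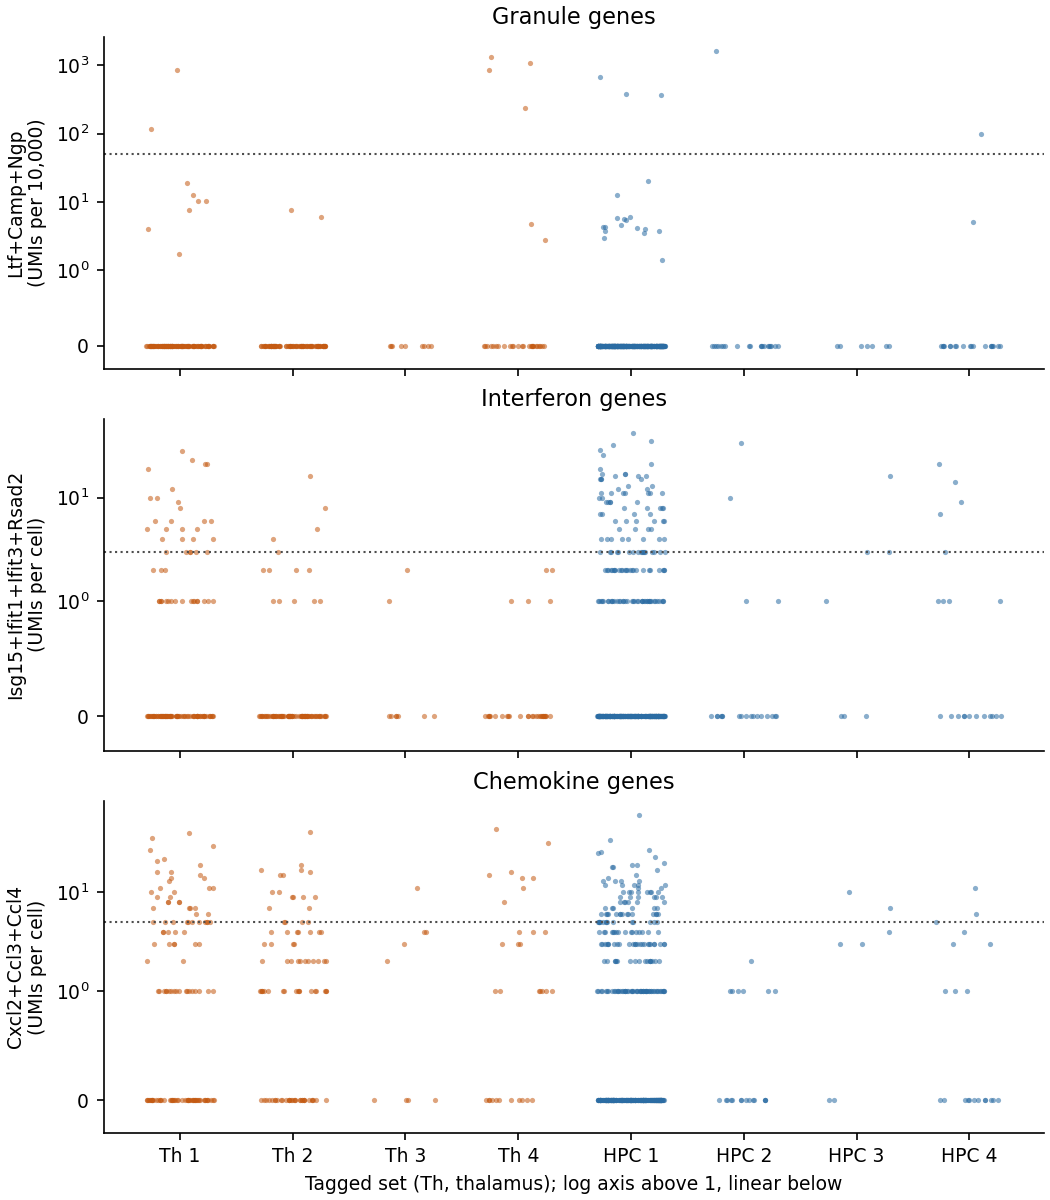
Each point is 1 neutrophil, placed by its set. The panels show Ltf, Camp and Ngp in UMIs per 10000, Isg15, Ifit1, Ifit3 and Rsad2 in UMIs per cell, and Cxcl2, Ccl3 and Ccl4 in UMIs per cell (log axis above 1), with the limits of 50, 3 and 5 as dotted lines. The 11 maturing cells stand apart from the rest, while the interferon and chemokine values run on across their limits.

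A part of the neutrophils carried an interferon response. Isg15 encodes a ubiquitin-like protein, Ifit1 and Ifit3 encode proteins that bind viral RNA, and Rsad2 encodes viperin. Together they had 0 UMIs in 482 cells, 1 or 2 in 109 cells and at least 3 in 122 cells, with a maximum of 42. The last group, a range on a scale and not a type, is called interferon-high, and 35 cells with 2 and 27 with 3 UMIs lay next to the limit. It held 28 of 125, 5 of 91, 0 of 9 and 0 of 32 cells of thalamus sets 1 to 4, and 79 of 407, 2 of 21, 3 of 7 and 5 of 21 of the HPC sets. Its share was thus 22.4% in thalamus set 1 and 19.4% in HPC set 1 but 5.49% in thalamus set 2. Depth was alike, with medians of 1920 UMIs inside and 1954 outside. In thinned cells a UMI of the 4 genes was found in 29.6% of the neutrophils, against 14.2% of T cells and 6.46% of microglia. The monocyte gate was not compared in this way. In levels without thinning, Isg15 stood at 4.07 in the monocyte gate and 3.65 in all neutrophils, but Ifit3 at 0.911 and 1.24. A list of interferon response genes summed to 77.1 in the monocyte gate and 70.4 in the neutrophils. The response therefore did not set neutrophils apart from monocytes.

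Other genes of the interferon response, which did not set the limit, were higher in the same cells. Summed, 28 of them stood at 150 UMIs per 10000 in interferon-high cells and 43.7 in the other neutrophils. Oasl1, an antiviral synthetase relative, stood at 4.56 against 0.503 in thalamus set 1 and 8.05 against 0.803 in HPC set 1. The protease gene Usp18, which takes ISG15 off its targets, stood at 2.53 against 0 and 3.12 against 0.254. Irf7, a transcription factor of the interferon system, stood at 3.54 against 0.503 and 3.18 against 0.549. Slfn4, a gene of the myeloid interferon response, was found in 84.4% of interferon-high and 38.2% of other cells. S100a8 (147 against 217) and S100a9 (171 against 268) were lower in these cells, while Csf3r (34.9 against 34.0) and Slpi (10.7 against 10.9) were level. These cells were chosen by genes of the same kind, so the values are a description with no test.

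The promoters of the 4 genes share a short motif, shown here since the genes were present in the same cells. The motif, GAAA, any 2 bases and GAAA again, searched on both strands, is the core of the interferon-stimulated response element. It was found in 3.44% of 32851 promoters (RefSeq, GRCm38.p6, 250 bases before to 50 after the start) and in those of all 4 genes. Of 28 genes of the interferon list with a promoter, 16 held it. Capitals mark the matches, with stretches that overlap written as 1 run.
Isg15, chr4:156200846-156200925, minus strand: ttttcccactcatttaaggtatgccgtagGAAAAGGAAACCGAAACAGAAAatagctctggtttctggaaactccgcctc
Ifit1, chr19:34640759-34640838, plus strand: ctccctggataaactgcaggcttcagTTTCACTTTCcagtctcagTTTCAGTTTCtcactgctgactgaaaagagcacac
Ifit3, chr19:34583355-34583434, plus strand: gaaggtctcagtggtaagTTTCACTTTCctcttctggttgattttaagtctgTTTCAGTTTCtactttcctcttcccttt
Rsad2, chr12:26456528-26456607, minus strand: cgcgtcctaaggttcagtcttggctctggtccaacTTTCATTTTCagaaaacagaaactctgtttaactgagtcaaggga
Each stretch is 80 bases long and lies before the start. Isg15 holds 3 overlapping matches, Ifit1 and Ifit3 hold 2 each and Rsad2 holds 1. A match is a description of the letters and not a site of binding.

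Chemokine genes were high in a part of the cells too. Cxcl2 draws neutrophils through CXCR2, and Ccl3 and Ccl4 draw monocytes and lymphocytes. Cells with at least 5 UMIs of the 3 genes numbered 155, with 35 cells at 4 and 31 at 5 UMIs and a maximum of 61, while 341 cells had 0. These chemokine-high cells were 41, 19, 1 and 8 in thalamus sets 1 to 4 (32.8%, 20.9%, 11.1% and 25%) and 81, 0, 2 and 3 in the HPC sets (19.9%, 0%, 28.6% and 14.3%). In HPC set 2 this was 0 of 21 cells. Chemokine-high cells were as frequent among interferon-high cells (21.3%, 26 of 122) as among the others (21.8%, 129 of 591). They were 22.9% of the cells poor in microglial RNA and 20.5% of those rich in it.

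The chemokine-high cells carried further genes of an inflammatory response. Acod1 stood at 23.8 against 3.99 UMIs per 10000 in thalamus set 1 and at 19.3 against 6.59 in HPC set 1. Cd14, a co-receptor for bacterial lipopolysaccharide, stood at 3.40 against 1.85 and 3.01 against 0.904. Ccrl2, a receptor that holds chemerin, stood at 13.6 against 2.02 and 5.29 against 2.35. Tnf stood at 5.40 against 1.04 and 3.46 against 1.23, and Csf1, a growth factor of microglia and macrophages, at 18.1 against 5.90 and 9.70 against 4.28. Fth1, the ferritin heavy chain, stood at 348 against 165 and 230 against 118. The inhibitory ligand Cd274 (PD-L1) was found in 26.5% of these cells and in 11.5% of the others. Il1b did not follow the same pattern in both sets, with 21.9 against 24.0 in thalamus set 1 and 46.7 against 27.9 in HPC set 1. Cxcr2 was lower in them, at 10.2 against 13.8 UMIs per 10000. No test was made, as the limit was chosen after values were seen.

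Of the chemokine promoters, Cxcl2 and Ccl3 had an entry. The motif GGGA, any 2 bases and TTCC, a form of the NF-kB site searched on both strands, was found in 1.47% of all promoters, in that of Cxcl2 and not in that of Ccl3. Capitals mark 2 overlapping matches in the stretch of Cxcl2 before its start.
Cxcl2, chr5:90903767-90903846, plus strand: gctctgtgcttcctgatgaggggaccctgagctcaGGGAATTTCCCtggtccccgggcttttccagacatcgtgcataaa

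To ask whether maturity or activation differed between the regions, the share of neutrophils with a UMI of each of 7 gene groups was compared after thinning, over the 3 sets of each region with at least 10 cells (sets 1, 2 and 4). At 3 against 3 sets the smallest p an exact permutation test allows is 0.1, so no group could pass. Chemokine UMIs were found in 56.6%, 59.3% and 62.1% of the thalamic neutrophils and in 43.6%, 23.8% and 38.1% of those of the HPC. The groups did not overlap, with means of 59.3% ± 2.73 and 35.2% ± 10.2 (SD, n = 3; two-sided exact permutation p = 0.1, adjusted over 7 groups 0.35). Before thinning the means were 62.7% and 41.3%, and at the higher depth of 1656 UMIs they were 57.8% and 43.8%. In cells poor in microglial RNA, not thinned, the shares were 52.2%, 55.6% and 68% for thalamus sets 1, 2 and 4 and 52.8%, 33.3% and 46.7% for HPC sets 1, 2 and 4, and there the regions overlapped. The sets left out held 8 and 7 cells at this depth, with 50% in thalamus set 3 and 71.4% in HPC set 3. Proliferation genes did not overlap either, at 3.34% against 0.271%, but only 9 of the 642 thinned cells of all sets had such a UMI. The regions overlapped before thinning (3.88% against 3.50%) and at the higher thinning depth.

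Each of the other groups reported here overlapped between the regions. Il1b was found in 77.6% ± 11.7 and 72.8% ± 10.6 (exact permutation p = 0.7), granule genes in 7.21% ± 6.30 and 4.53% ± 0.402 (p = 0.7) and Cxcr4 in 17.5% ± 4.6 and 20.4% ± 9.80 (p = 0.7), thalamus first. The interferon group gave 18.8% ± 15.2 and 27.0% ± 11.0 (exact permutation p = 0.6), with a spread within each region larger than the difference.

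**Figure D4:**
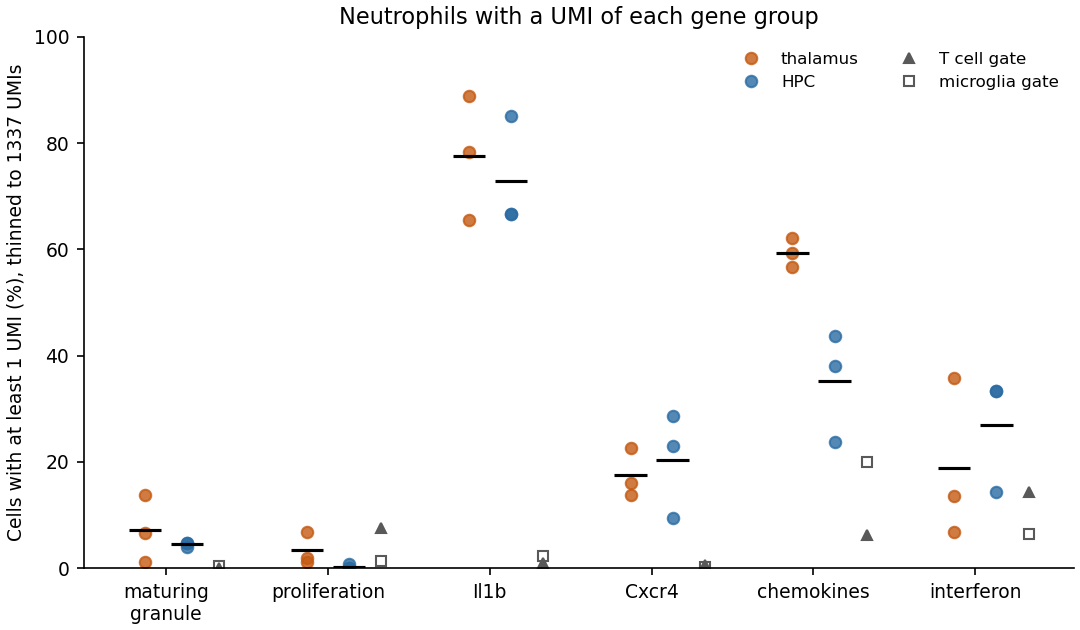
Percent of neutrophils with at least 1 UMI of each gene group after thinning to 1337 UMIs, by set (points, sets 1, 2 and 4 of each region) with the mean of each region (lines), beside all T cell gate and microglia gate cells at the same depth. For chemokines the thalamic sets lie at 56.6% to 62.1% and those of the HPC at 23.8% to 43.6%, and for the other groups but proliferation the regions overlap.

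For single genes, counts were summed over the neutrophils of each set and compared between the same 3 and 3 sets with edgeR's quasi-likelihood test. Of 2426 genes tested, 1 was called at an adjusted p under 0.05 (0.0412%), and 100 had an unadjusted p under 0.05 (4.12%). For 10.3% of all genes, every set of 1 region lay above every set of the other. Of the 46 maturity and activation genes named by rule, 38 were tested and 0 were called, 3 had an unadjusted p under 0.05, and DESeq2 called none of them. Simulated data of this design gave every gene the same spread between sets (a coefficient of variation of 0.256 beyond counting error). There 26.7% of 2-fold and 96.4% of 4-fold changes were recovered, so 2-fold changes would often be missed. Granule genes had far larger errors, with SEs of the log2 fold change of 1.39 for Ltf, 1.53 for Camp and 1.54 for Ngp. The rates from the simulated data do not hold for such genes.

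The 3 named genes with an unadjusted p under 0.05 were the chemokines. Cxcl2 stood at 6.89, 7.85 and 16.5 UMIs per 10000 in thalamus sets 1, 2 and 4 and at 4.91, 1.15 and 4.05 in HPC sets 1, 2 and 4. The regions did not overlap, and the log2 fold change was 1.56 ± 0.42 (SE; edgeR unadjusted p = 0.00291, adjusted p = 1.00). Ccl4 stood at 8.33, 7.85 and 5.56 in the thalamus and at 4.78, 0.192 and 0.385 in the HPC, which were 1 and 2 UMIs in HPC sets 2 and 4 (log2 fold change 1.55 ± 0.54, adjusted p = 1.00). Ccl3 stood at 5.73, 2.60 and 3.20 against 2.72, 0.192 and 2.31, with overlap (0.98 ± 0.43, adjusted p = 1.00). With no filter on low counts edgeR called Cxcl2 (adjusted p = 0.00801) and Ccl4 (adjusted p = 0.00516), and without HPC set 1 it called Ccl4 (log2 fold change 4.63, adjusted p = 0.0028). In cells poor in microglial RNA, Cxcl2 stood at 5.67, 5.56 and 12.0 against 6.83, 1.18 and 4.67, and the regions overlapped.

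Microglia of the thalamus also held more of the Ccl genes. Ccl3 was at 2.81 UMIs per 10000 in the microglia gate of the thalamus and at 0.683 in that of the HPC, and Ccl4 at 4.90 and 1.29. The part of microglial RNA in the Ccl values of neutrophils was not tested. Cxcl2 was at 0.0350 and 0.00776 in the same microglia, far below its level in neutrophils of both regions (8.46 and 4.84).

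The called gene was Ttr, the thyroxine carrier transthyretin, which the choroid plexus secretes. The thalamic sets 1, 2 and 4 held 0.891, 1.24 and 0.834 UMIs per 10000, 50 UMIs together, and the 3 HPC sets held 0 of 980350 UMIs. Against 3 counts over those HPC sets, the level was at least 32.7-fold higher in the thalamus (edgeR adjusted p = 0.0153). Without thalamus set 1 or 2, without HPC set 1 or without the cells rich in microglial RNA, Ttr fell under the filter on low counts. It was therefore not tested there. Other cells differed the same way, at 0.429 against 0 in T cells and 0.515 against 0.00111 in the microglia gate, and the part of free RNA in the result was not tested. Spp1, named after its values were seen, was next, at 21.6, 5.43 and 3.47 against 1.05, 0.383 and 1.16 (log2 fold change 3.50 ± 0.61, adjusted p = 0.0827), and it passed without thalamus set 1 (2.33, adjusted p = 0.0207) or thalamus set 4 (3.84, adjusted p = 0.00495). T cells showed 7.46 against 0.478 and the microglia gate 41.0 against 1.27, so Spp1 moved between the regions in all 3. Ctsb (1.22 ± 0.24, adjusted p = 0.211), Cd14 (1.29 ± 0.31, 0.744), Fth1 (0.84 ± 0.25, 1.00) and Apoe (1.23 ± 0.46, 1.00) likewise did not pass. All 4 also stood higher in the T cells of the thalamus, as Cd14 at 0.678 against 0.499 UMIs per 10000.

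**Figure D5:**
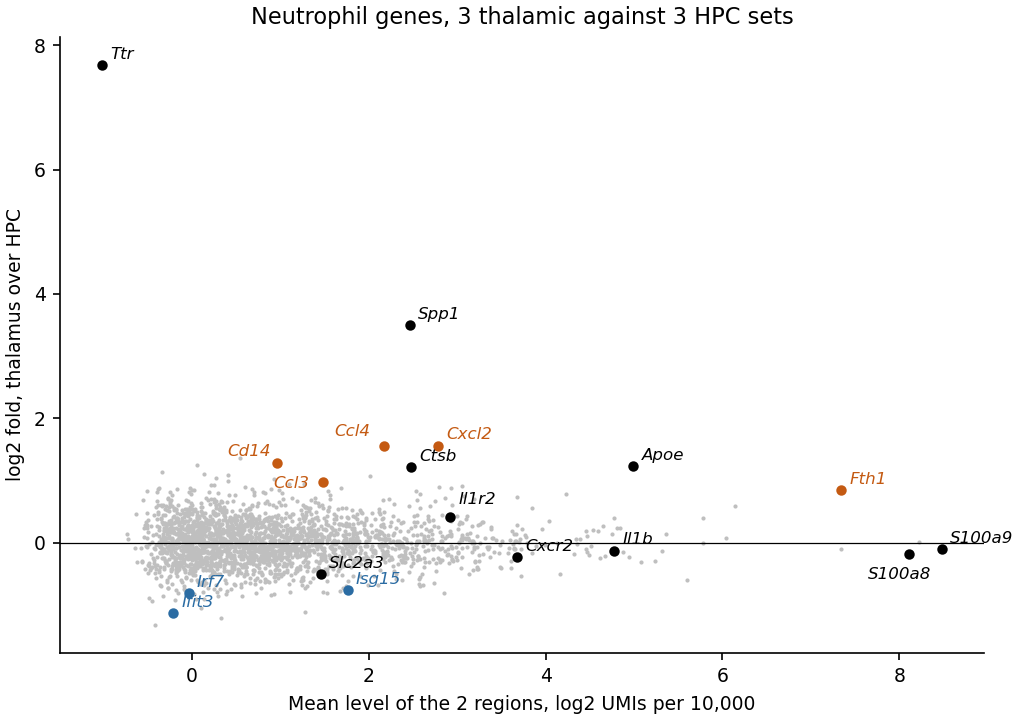
For each of 2426 genes, the log2 fold change between the neutrophils of 3 thalamic and 3 HPC sets (y) against the mean level in log2 UMIs per 10000 (x). Ttr and Spp1 stand above the rest at 7.69 and 3.50, the chemokines Cxcl2, Ccl4 and Ccl3 (orange, with Cd14 and Fth1) lie between 0.98 and 1.56, and Isg15, Irf7 and Ifit3 (blue) lie under 0. The value of Ttr depends on how 0 counts are treated.

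Interferon genes leaned the other way without passing. All 16 tested members of the interferon list were lower in the thalamus, as were 1208 of all 2426 genes tested. Their median log2 fold change was -0.72 beside 0.00061 over all genes tested. None of them was called, and 3 had an unadjusted p under 0.05. Isg15 stood at 4.03, 2.07 and 0.834 in the thalamus and at 3.98, 4.02 and 5.40 in the HPC, with overlap (log2 fold change -0.76 ± 0.37, adjusted p = 1.00). Ifit3 stood at 1.20, 0.118 and 0.139 against 1.61, 1.15 and 0.963 (-1.13 ± 0.57, adjusted p = 1.00) and Irf7 gave -0.81 ± 0.54. Thalamus set 1 was level with the HPC sets while sets 2 and 4 were low. Without that set the median was -1.29 over 11 members, and without HPC set 1 it was -0.68 over 12, with 1 member higher in each. Without thalamus set 4, 3 of 24 tested members were higher, and with no filter on low counts 4 of 31. In T cells Isg15 stood the other way, at 1.57 in the thalamus and 0.551 in the HPC.

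Several other lists lay close to the median of all genes. The median log2 fold change was 0.11 for the neutrophil identity list (19 tested), 0.0051 for secondary granule genes (14 tested), 0.14 for oxidase and killing genes (11 tested), -0.04 for NF-kB response genes (19 tested), and 0.05 for immediate early and stress genes (15 tested), with 0 members called in any of them. Tertiary granule and secretory genes had a median of 0.25 (11 tested) and microglia markers one of 0.29 (10 tested), also with 0 called. At an unadjusted p under 0.05 these lists had 2, 0, 0, 2, 0, 1 and 0 members. The list of cytokines and chemokines had a median of 0.24, with 7 of 11 tested members higher in the thalamus, 4 lower and 0 called. Without cells rich in microglial RNA its median was -0.02, with 3 of 8 tested members higher and 5 lower. Single genes of identity did not pass the test, as S100a8 (-0.19 ± 0.41), S100a9 (-0.10 ± 0.45), Retnlg (-0.30 ± 0.56), Cxcr2 (-0.24 ± 0.26), Csf3r (-0.24 ± 0.25) and Mmp9 (0.33 ± 0.30). The first 3 of these changed sign when single sets were left out. Il1b gave -0.13 ± 0.24, Il1r2 0.42 ± 0.26 and Tnf 0.24 ± 0.57. Slc2a3, a glucose transporter, was lower in the thalamus without overlap, at 2.44, 1.83 and 2.36 against 3.08, 3.26 and 3.47 (-0.51 ± 0.25, unadjusted p = 0.0632, adjusted p = 1.00).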

How the data were processed

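CD45+ cells of thalamus and HPC were measured by 10x Genomics 3′ scRNA-seq with multiplexing tags. The deposited matrices held raw UMI counts, which the authors made with Cell Ranger (7.1.0 per the file headers, an earlier version in the methods of the study) on GRCm38 (mm10). Whether introns were counted was not stated. Tag rows were left out. Cells with 200 to 7500 genes and at most 2% mitochondrial counts were kept, as in the study, and no doublet caller was run, so doublets of 1 set remain. The members, gene lists and named genes were chosen with earlier results of these data known. Other classes were taken by gates on raw UMIs, where B cells needed 2 UMIs of Cd79a and Cd79b, and monocytes 2 of Ly6c2 and Ccr2 with at most 2 microglial UMIs.

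Groups were the 2 regions, with 4 tagged sets each as replicates, which the labels do not tie to single mice, so p-values measure the spread between these sets. Levels are UMIs per 10000 UMIs of the neutrophils of a set. Shares were compared by two-sided exact permutation tests (scipy 1.17.1) with Benjamini-Hochberg adjustment. For shares with a UMI, cells were thinned to 1337 UMIs, the 10th percentile, which left out 71 of 713 cells. Counts summed over the neutrophils of sets with at least 10 cells were tested with edgeR 4.0.16 (filterByExpr, TMM, quasi-likelihood F-test), tested on simulated data, with DESeq2 1.42.0 as an alternative. Sums held 51899 to 876256 UMIs per set. The rule for named genes took called genes with at least 20 CPM and no overlap (up to 10 each way), 46 maturity and activation genes, the genes of highest level or ratio, and markers of other cells. Spp1, Ctsb, Cd14, Fth1 and Apoe were added after values were seen. Alternatives changed the filter, scaling, thinning, S100 and mitochondrial limits, microglial RNA and the sets used. Promoters came from RefSeq. A few genes, 1 of the 7 gene groups among them, are not reported here. Intervals cover counting error only.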

Additional observations from a re-analysis of the deposited data

Results flagged for a closer look

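In 6 of 18 groups of 4 sets, 1 set stood apart by Dixon's 95% limit on the gap over the range, which chance gives in about 1 of 20. The neutrophil share of HPC set 1 was 7.55%, with a gap of 0.922 of the range. The same set was apart in its share of monocyte gate cells (1.26%, against 0.290% to 0.443% in the other HPC sets) and in the share of its neutrophils rich in microglial RNA (47.4%, against 28.6% in each of the others). Thalamus set 3 was apart in its share of microglia gate cells, at 87.6% against 70.0% to 72.4%. The median number of genes per neutrophil was highest in thalamus set 4 (1117) and in HPC set 4 (1247), which rest on 32 and 21 cells.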

How the results depend on the processing

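With sets left out 1 at a time, the difference in neutrophil share ranged from -0.85 to 1.55 percentage points (0.40 without thalamus set 3, 0.23 without thalamus set 4). Other limits and denominators kept its sign, and p stayed above the threshold in every setting run. The count of genes called, 1 in the main fit, was 6 with no filter on low counts (Ccl4, Cst7, Cxcl2, Igkc, Spp1, Ttr), and 0 without cells rich in microglial RNA, with S100 of at least 200 per 10000, and with all 8 sets (added after seeing the data), where 46, 54 and 69 genes had an unadjusted p under 0.05 in edgeR. It ranged from 0 to 3 with single sets left out: 0 without thalamus set 2 (60 at an unadjusted p under 0.05), Spp1 alone without thalamus set 1, Igkc, Spp1 and Ttr without thalamus set 4, and Ccl4 alone without HPC set 1. The filter on low counts was set anew in each fit, against 2426 genes tested in the main fit. It kept 1681 genes without thalamus set 1, 1674 without thalamus set 2 and 1688 without HPC set 1. Without cells rich in microglial RNA it kept 1302. Ttr was not tested in those fits. With the replicate block the count of genes called was 2 (Spp1 and Ttr). The numbers only name sets, as same-numbered sets gave correlations of 0.284, -0.142 and -0.016, so the block is no pairing of animals.

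Of 22 genes with alternatives, S100a8 (-0.68 to 0.33), S100a9 (-0.72 to 0.39) and Retnlg (-1.40 to 0.10) changed sign when sets were left out. Shares with a UMI that changed sign were Il1b (-1.89 without thinning, -1.47 at 1656 UMIs, -0.90 to 10.9 with sets left out), proliferation (-0.34 at 1656 UMIs, 0 with at least 2 UMIs), granule genes (-0.61 to 5.67) and Cxcr4 (-8.31 to 1.22). The chemokine share kept its sign in all of them (14.0 at 1656 UMIs, 18.4 to 28.4 with sets left out). Depth limits the rest: HPC sets 2 and 4 held 21 neutrophils each.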

Other observations

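Further genes set these cells apart from the other CD45+ cells as well, of which Stfa2l1, Lrg1 and Ifitm1 were also in the lists compared. Among genes of at least 200 CPM, Cstdc4, a stefin-like protease inhibitor (3.56 against 0.00464 UMIs per 10000), Steap4, a metalloreductase (2.16 against 0.00439), and Stfa2l1, a stefin (4.32 against 0.0103), had the largest ratios to the other kept cells, as means over sets. Steap4 was found in 15.3% of the neutrophils and was highest in thalamus set 3, at 9.09 UMIs per 10000 over 9 cells. Lrg1, a glycoprotein of neutrophil granules, stood at 5.07, 13.5, 20.8 and 3.89 in thalamus sets 1 to 4 and at 3.06, 7.86, 11.6 and 5.40 in the HPC sets, highest in thalamus set 3. Ifitm1, an interferon-induced membrane protein, stood at 8.25, 39.6, 53.3 and 12.4 in thalamus sets 1 to 4 and 10.1, 23.9, 0.726 and 28.1 in HPC sets 1 to 4, while Isg15 was highest in HPC set 4.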
